A study of Homo sapiens with 9 samples.

Results

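NEAT1 and MALAT1, both nuclear long noncoding RNAs, were described together with SFPQ, NONO, PSPC1 and RBM14, the proteins that build or belong to paraspeckles. The 6 genes were taken by symbol, and all 6 were found among the 56823 genes summed from the transcript tables. RNA came from H1975, an established human non-small cell lung cancer line, carrying dCas9-KRAB, a catalytically dead Cas9 fused to a repressor domain, under a doxycycline-inducible promoter. Control cells had a non-targeting guide RNA, and the others had gRNA1 or gRNA2, both directed at the long noncoding RNA TRIDENT. All 3 groups had 4 ug/ml doxycycline for 72 h, so the controls also had the induced repressor and doxycycline. Each group had 3 libraries of total RNA, made after removal of ribosomal RNA rather than by capture of poly(A) tails. Whether the replicates came from separate cultures is not stated, and p-values therefore measure only the spread between these libraries, which may be technical.

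Paraspeckles are nuclear bodies built on NEAT1. A short NEAT1 RNA ends at a poly(A) signal, whereas the long one runs past it and is the scaffold that paraspeckles need. SFPQ, NONO and PSPC1 are related RNA-binding proteins that pair with each other; SFPQ and NONO stabilise the long NEAT1 RNA, and RBM14 is required for paraspeckle assembly. MALAT1 lies downstream of NEAT1 on the same chromosome, and its RNA gathers in nuclear speckles, the bodies rich in splicing factors that often neighbour paraspeckles.

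Read totals ran from 16918432 to 26466536 per library. The RNA matched to TRIDENT through its RefSeq record (symbol TRIDDENT) had 49, 56 and 62 reads in control libraries. The libraries labelled gRNA1 had 36, 49 and 38 such reads, and the libraries labelled gRNA2 had 61, 60 and 42. It was at 0.745-fold and 0.945-fold of the control, and neither passed edgeR's quasi-likelihood test (adjusted p = 0.128 and 0.81), so the guide groups are named by their labels throughout. Epithelial markers were high in every library, with EPCAM at 318 to 366 TPM (a level scaled per length of transcript) and KRT7 at 721 to 848 TPM. Of the blood and stromal markers, HBB and COL3A1 were listed at 0, PTPRC was at 1.3 to 2.24 TPM and COL1A1 at 7.8 to 9.69 TPM.

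Long NEAT1 and MALAT1 share an unusual 3′ end. Neither carries a poly(A) tail added in the usual way: RNase P, the enzyme that trims transfer RNA precursors, cuts before a small transfer-RNA-like RNA, and the new end is protected by a triple helix of U-rich tracts and a genomic A-rich tract. The last 100 bases before that cut are shown, with the tracts TTTCTTTT, TTTTGCTTTT and AAAAAGCAAAA in capitals, written as DNA and read from the GENCODE 29 transcripts (hg38, plus strand). The tracts were taken from the end of the long NEAT1 transcript and then marked in both windows.
NEAT1-202, chr11:65445441-65445540: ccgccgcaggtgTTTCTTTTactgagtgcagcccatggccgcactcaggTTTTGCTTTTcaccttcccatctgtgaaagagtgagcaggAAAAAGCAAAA
MALAT1-202, chr11:65506017-65506116: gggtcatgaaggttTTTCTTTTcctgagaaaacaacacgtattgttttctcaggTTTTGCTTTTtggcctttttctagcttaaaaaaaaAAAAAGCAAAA
Both windows stop at the base before an annotated small RNA, at 65445541 to 65445598 for NEAT1 and at 65506117 to 65506173 for MALAT1. Searched on the transcript strand, all 3 tracts were in the last 100 bases of 1 of 203677 annotated transcripts (0.000491%), which was the long NEAT1 transcript. That match was fixed in advance, because the tracts were taken from this transcript. The annotated MALAT1-202 runs on past its window, so the search of annotated ends did not cover that window. The A-rich tract alone was in the last 100 bases of 94 transcripts (0.0462%).

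The short NEAT1 RNA ends near a canonical poly(A) signal, AATAAA, in capitals in this window of the long transcript.
NEAT1-202, chr11:65426459-65426518: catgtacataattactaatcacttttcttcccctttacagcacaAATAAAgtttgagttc
The signal starts at position 65426503, and the last annotated end of a short transcript is at 65426513. Only spliced short transcripts were annotated, and the most abundant of them, NEAT1-205, was told from the long RNA by the bases across its splice junction. Bases 175 to 214 are shown, and the first exon ends after base 187. The capitals start after base 194, where the sequence first leaves that of the long RNA. The first bases of the second exon are therefore in lower case.
NEAT1-205: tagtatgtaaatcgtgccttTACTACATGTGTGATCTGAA

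NEAT1 (ENSG00000245532.8, chromosome 11, 65422774 to 65445540 of hg38, plus strand) was higher with both guides. CPM, read counts scaled to a common library size, were 19195, 19841 and 19607 in the controls. With gRNA1 the values were 21413, 21375 and 20526, and with gRNA2 they were 23469, 23780 and 24079. No library of one group reached into the range of another, and the order was control, gRNA1, gRNA2. The fold over control was 1.08 with gRNA1 (95% interval 1.04 to 1.12, edgeR quasi-likelihood adjusted p = 0.00963) and 1.22 with gRNA2 (1.18 to 1.26, adjusted p = 8.34e-06). Between the guides, NEAT1 was 1.13-fold higher with gRNA2 (1.09 to 1.17, adjusted p = 0.00047). These are small changes on the scale of all genes tested, whatever their counts: 52.6% of the 19658 genes moved at least as far as NEAT1 with gRNA1, and 19.6% with gRNA2. In bulk RNA, a change in RNA per cell cannot be told apart from a change in the mix of cells. The gRNA1 call ended without gRNA1 replicate 1 or 2 (adjusted p = 0.0609 and 0.0631) and with an offset for transcript length (1.05-fold, adjusted p = 0.391). On the per-length scale, gRNA1 replicate 3, at 1033 TPM, lay within the control range of 1025 to 1082 TPM, while the gRNA2 libraries were at 1241 to 1399 TPM.

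MALAT1 (ENSG00000251562.8, chromosome 11, 65497688 to 65506516, plus strand) fell with gRNA1, and its value with gRNA2 did not pass the test. Control libraries had 34278, 36498 and 36950 CPM, gRNA1 libraries 31838, 32075 and 33290 CPM, and gRNA2 libraries 36739, 39458 and 40435 CPM. All gRNA1 libraries were below all controls and all gRNA2 libraries, while the lowest gRNA2 library lay inside the control range. The fold was 0.902 with gRNA1 (95% interval 0.857 to 0.95, edgeR adjusted p = 0.0199) and 1.08 with gRNA2 (1.03 to 1.14, adjusted p = 0.0574, past no threshold). The direct comparison of gRNA2 with gRNA1 gave 1.2-fold (1.14 to 1.26, adjusted p = 0.00044). The gRNA1 call ended when any of 5 libraries was left out, namely control replicate 2 or 3, gRNA1 replicate 1 or 2, or gRNA2 replicate 2 (adjusted p = 0.0626 to 0.116). The gRNA2 value passed without gRNA1 replicate 3 (adjusted p = 0.0375) or gRNA2 replicate 1 (0.00658). It also passed with no filter on low counts (0.00173) and with a block for replicate number (0.00558). On the per-length scale the gRNA2 libraries, at 16940 to 17880 TPM, were all above the controls, at 15480 to 15560 TPM.

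MALAT1 and NEAT1 were the most abundant and the second most abundant gene by reads in every library, with 3.18% to 3.98% and 1.87% to 2.37% of the reads. Together they took 5.22% to 5.49% of the reads in control cells, 5.3% to 5.33% with gRNA1 and 6% to 6.35% with gRNA2. The 2 genes lie on the same strand with 52147 bases between them. The number of MALAT1 reads per NEAT1 read, chosen after the values were seen, does not depend on how libraries are scaled. It was 1.786, 1.839 and 1.884 in control cells, 1.487, 1.501 and 1.622 with gRNA1, and 1.565, 1.659 and 1.679 with gRNA2. Every guide library was below every control, and the ranges of the guides overlapped. The exact permutation test gave p = 0.1 for each guide against the control, the smallest p that 3 against 3 libraries allow, and 0.2 between the guides (two-sided).

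**Figure D1:**
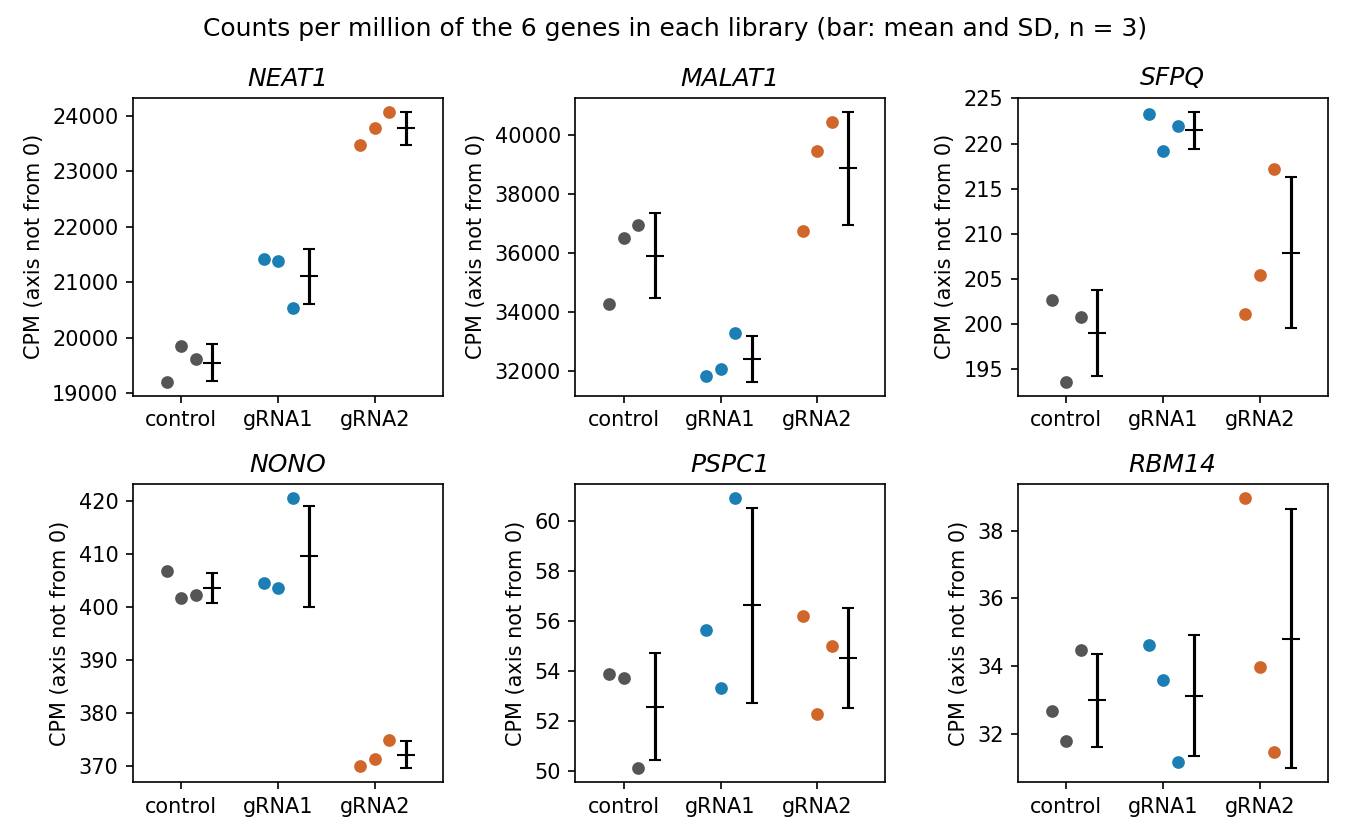
CPM of each of the 6 genes in each library (points, 3 per group), with the mean and SD of each group as bars; the axes do not start at 0. NEAT1 steps up from control to gRNA1 to gRNA2 without overlap, MALAT1 is lowest in the 3 gRNA1 libraries, and NONO is lowest in the 3 gRNA2 libraries.

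SFPQ (ENSG00000116560.10, chromosome 1, 35176378 to 35193148, minus strand), an essential splicing and transcription factor, rose with gRNA1. It had 202.7, 193.6 and 200.8 CPM in control cells, 223.3, 219.2 and 221.9 CPM with gRNA1, and 201.1, 205.5 and 217.2 CPM with gRNA2. The gRNA1 libraries were above all others, and the gRNA2 libraries overlapped the controls. The fold was 1.11 with gRNA1 (95% interval 1.05 to 1.18, edgeR adjusted p = 0.0237) and 1.04 with gRNA2 (0.988 to 1.1, adjusted p = 0.345). The difference between the guides did not pass (0.938-fold, 0.888 to 0.992, adjusted p = 0.185), so SFPQ was not shown to respond differently to them. The gRNA1 call ended when control replicate 2 or 3 or any gRNA1 replicate was left out (adjusted p = 0.0515 to 0.11) and with the offset for transcript length (0.121). On the per-length scale both guides' libraries, 82.45 to 86.26 TPM with gRNA1 and 78.9 to 88.6 TPM with gRNA2, were above the controls at 71.84 to 78.36 TPM.

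NONO (ENSG00000147140.15, chromosome X, 71283192 to 71301168, plus strand), the partner of SFPQ, moved with the other guide. Its CPM was 406.8, 401.6 and 402.2 in control cells, 404.6, 403.6 and 420.6 with gRNA1, and 370, 371.3 and 374.9 with gRNA2. The gRNA2 libraries were below all 6 others. The fold was 0.922 with gRNA2 (95% interval 0.881 to 0.965, edgeR adjusted p = 0.0303), 1.01 with gRNA1 (0.97 to 1.06, adjusted p = 0.74), and 0.908 between gRNA2 and gRNA1 (0.868 to 0.951, adjusted p = 0.0151). The call did not hold per length: with effective lengths taken into account the fold with gRNA2 was 0.947 (adjusted p = 0.412), that between the guides was 0.951 (adjusted p = 0.502), and the TPM of the gRNA2 libraries, 251.6 to 254.2, lay inside the control range of 238 to 266.9. The call with gRNA2 also ended in 7 of 9 fits that left out a library, all but those without gRNA1 replicate 1 or 3 (adjusted p = 0.0528 to 0.144), and the one between the guides ended without gRNA2 replicate 2 (0.0885). Of its 31-base stretches, 15.7% were also in transcripts of other genes, mostly AC092115.1.

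PSPC1 and RBM14 did not pass in any comparison. PSPC1 (ENSG00000121390.18, chromosome 13, 19674752 to 19783019, minus strand), named as a paraspeckle component, had 53.87, 53.73 and 50.11 CPM in control cells, 55.63, 53.33 and 60.91 with gRNA1, and 56.21, 52.3 and 55.01 with gRNA2. The fold was 1.08 with gRNA1 (95% interval 0.992 to 1.17, edgeR adjusted p = 0.28) and 1.04 with gRNA2 (0.955 to 1.12, adjusted p = 0.629). RBM14 (ENSG00000239306.4, chromosome 11, 66616582 to 66627347, plus strand), which has a prion-like domain, had 32.69, 31.81 and 34.48 CPM in control cells, 34.64, 33.6 and 31.17 with gRNA1, and 38.97, 33.98 and 31.47 with gRNA2. Its fold was 1 with gRNA1 (0.902 to 1.12, adjusted p = 0.973) and 1.06 with gRNA2 (0.952 to 1.18, adjusted p = 0.534). Libraries of all groups overlapped for both genes. With gRNA1 both intervals include the 1.11-fold of SFPQ, and with gRNA2 both leave out the 0.922-fold of NONO. RBM14 shares its start with the RBM14-RBM4 readthrough gene, to which 4725 reads were assigned over the 9 libraries, 71.3% of the number assigned to RBM14, and adding them turned the fold between the guides from 1.05 to 0.991.

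**Figure D2:**
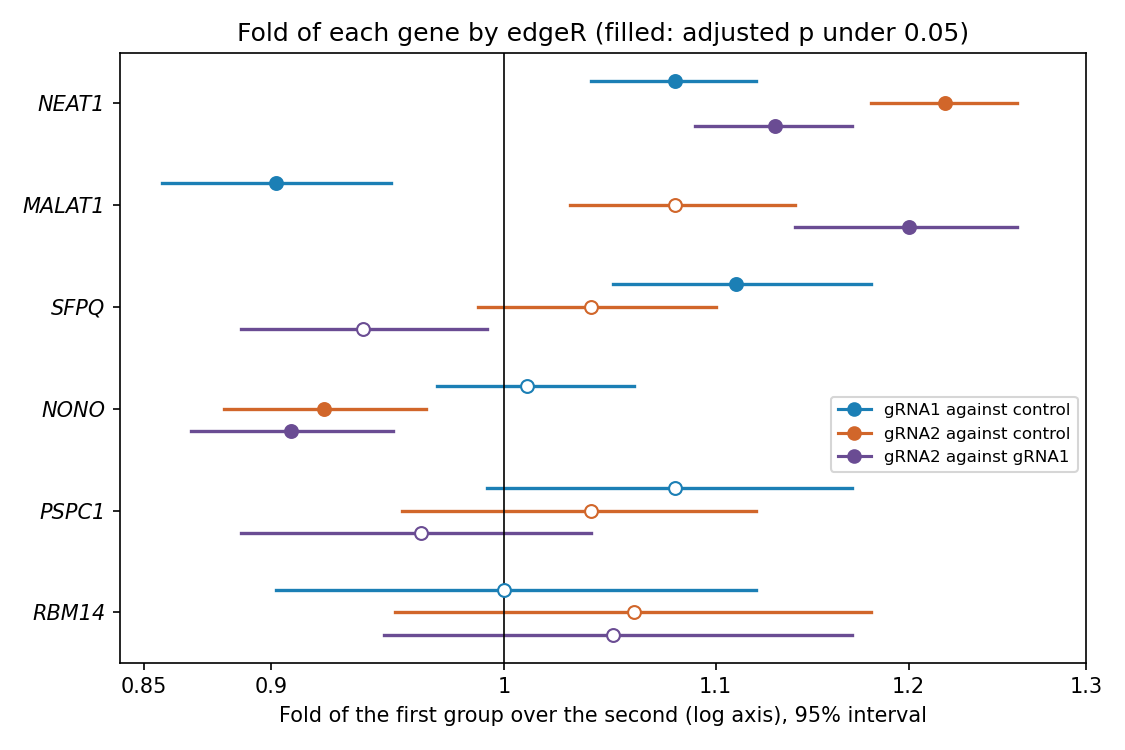
Fold of each gene in each comparison (points, log axis) with its 95% interval; filled points had an adjusted p under 0.05 by edgeR. NEAT1 is above 1 in all 3 comparisons, MALAT1 is below 1 with gRNA1 only, and the intervals of PSPC1 and RBM14 all include 1.

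By count, 3 of the 6 genes were called with gRNA1 (NEAT1 and SFPQ higher, MALAT1 lower), where 7.08% of all genes tested were called, 3.49% higher and 3.58% lower. With gRNA2, 2 were called (NEAT1 higher, NONO lower) against 8.44% of all genes, 3.69% higher and 4.75% lower. Between the guides 3 were called (NEAT1 and MALAT1 higher with gRNA2, NONO lower) against 6.22%, 3.12% higher and 3.1% lower. The first and second comparisons share the control libraries. The median log2 change of all genes was within 0.00948 of 0 in all 3 comparisons. As levels per length, the order was the same in every library: MALAT1, NEAT1, NONO, SFPQ, RBM14, PSPC1. The group means were 15533, 13887 and 17417 TPM for MALAT1 and 1062, 1131 and 1339 TPM for NEAT1 in control, gRNA1 and gRNA2. NONO was at 253.2 to 258.3 TPM and SFPQ at 74.09 to 84.58 TPM over the same group means. RBM14 was at 27.18 to 33.77, 25.7 to 35.4 and 32.93 to 36.45 TPM in control, gRNA1 and gRNA2 libraries. PSPC1 was at 21.02 to 23.7, 23.7 to 25.39 and 23.3 to 26.2 TPM, below RBM14 within each group, although the ranges over all libraries overlapped.

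The share of reads on transcripts annotated with a retained intron followed the same order as NEAT1. It was 6.13%, 6.11% and 6.09% in control cells, 6.3%, 6.29% and 6.27% with gRNA1, and 6.55%, 6.54% and 6.48% with gRNA2, with no overlap. Reads on mitochondrial genes were 5.3% to 5.6% in control cells, 5.64% to 6.53% with gRNA1 and 5.71% to 6.12% with gRNA2. The part of either share in the changes of NEAT1 and MALAT1, which are themselves unspliced or little spliced nuclear RNAs, was not tested.

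The long transcript carried nearly all NEAT1 reads. NEAT1-202, a single exon of 22743 bases, held 99.6% of them. Its level was 819, 868 and 833 TPM in control cells, 941, 949 and 856 TPM under gRNA1, and 999, 1047 and 1080 TPM under gRNA2. All gRNA2 libraries were above all others, and gRNA1 replicate 3 fell inside the control range. By limma on log2(TPM + 0.5), the change was 0.12 (SE 0.0534) with gRNA1 and 0.31 (SE 0.0534) with gRNA2, with adjusted p = 0.572 and 0.153 over the 55955 transcripts tested. Only 0.0465%, 0.0375% and 0.105% of transcripts were called in the gRNA1, gRNA2 and between-guide comparisons, and no transcript of the 6 genes was among them. Of their 41 transcripts tested by limma, 7, 9 and 11 had an unadjusted p under 0.05, where 8.8%, 10.1% and 9.07% of all transcripts had one; transcripts of 1 gene share reads.

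The short transcripts were at or near 0 apart from NEAT1-205, a spliced transcript of 512 bases. It was listed at 206, 211 and 249 TPM in control cells, 236, 234 and 177 TPM under gRNA1, and 242, 330 and 318 TPM under gRNA2, from 1116 to 2648 estimated reads. The gRNA2 libraries were above all gRNA1 libraries and overlapped the controls; the log2 change was 0.41 (SE 0.156) with gRNA2 and 0.46 (SE 0.156) between the guides, with limma adjusted p = 0.447 and 0.455. NEAT1-201, NEAT1-203, NEAT1-204, NEAT1-206, NEAT1-207 and NEAT1-208 did not exceed 0.255 TPM in any library. The long transcript thus made up 79.84%, 80.41% and 76.96% of NEAT1 TPM in control cells, 79.91%, 80.19% and 82.82% under gRNA1, and 80.45%, 75.99% and 77.22% under gRNA2. These ranges overlapped, and the exact permutation test gave p = 0.4 and 0.7 for gRNA1 and gRNA2 against control (two-sided, smallest possible 0.1). That share says little about the unspliced short RNA that ends at the poly(A) signal: all 7 annotated short transcripts are spliced, 94.72% to 99.2% of their 31-base stretches are also in the long one, and reads of an unspliced short RNA cannot be told from the long one by these estimates.

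**Figure D3:**
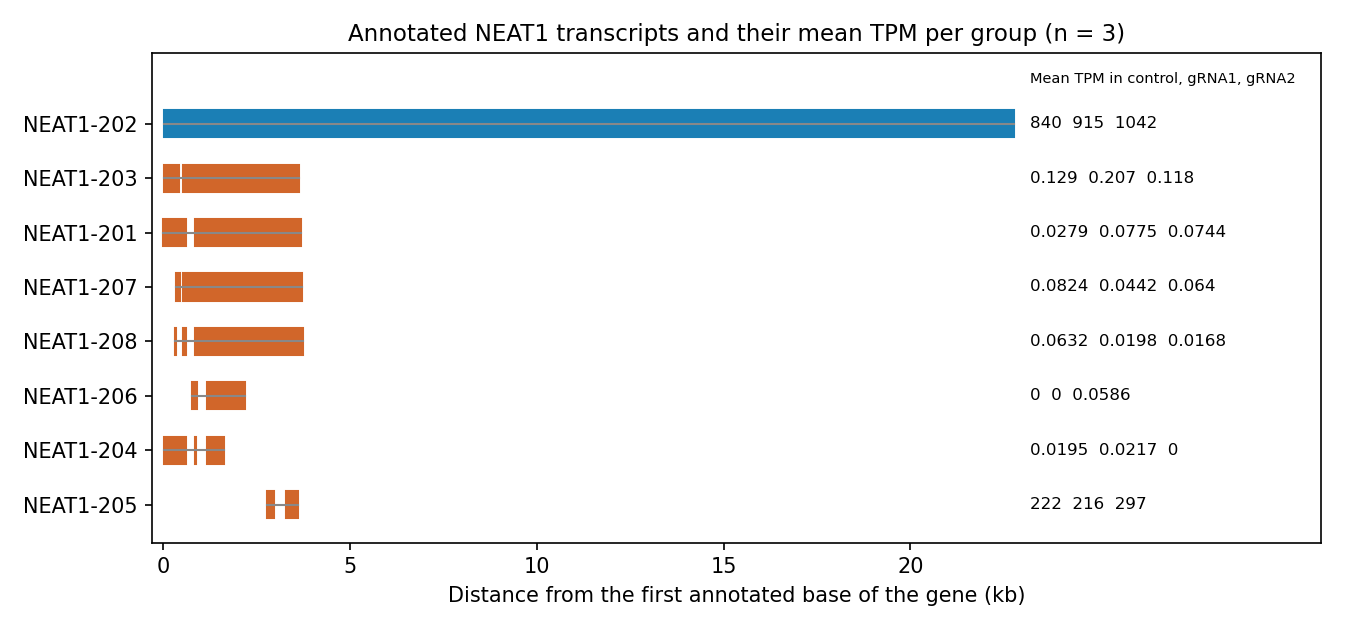
The 8 annotated NEAT1 transcripts drawn from the first annotated base of the gene (x axis in kb; boxes are exons and lines introns), with the mean TPM in control, gRNA1 and gRNA2 printed at the right. Only the long NEAT1-202 (840, 915 and 1042 TPM) and the short NEAT1-205 (222, 216 and 297 TPM) have levels above 1 TPM.

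MALAT1 reads were spread over 17 annotated transcripts that overlap each other. MALAT1-202, of 8708 bases, took 48.3% of the reads and MALAT1-215, of 5340 bases, took 38.5%. MALAT1-202 was at 1561, 1757 and 1736 TPM in control cells, 1538, 1549 and 1352 TPM under gRNA1, and 1654, 1857 and 1878 TPM under gRNA2. Its gRNA1 libraries were below all controls, and the log2 change was -0.19 (SE 0.0782, unadjusted p = 0.0436, limma adjusted p = 0.552). Most of the gene's TPM came instead from short annotated fragments, such as MALAT1-205 (584 bases, 2245 ± 86.7, 1845 ± 75.1 and 2301 ± 212 TPM in control, gRNA1 and gRNA2, SD, n = 3). The size of the TPM gap between MALAT1 and NEAT1 therefore rests in large part on how reads were divided among these fragments. The longest transcripts alone were at 1685 ± 108 TPM for MALAT1 and 840 ± 25.3 TPM for NEAT1 in the controls. These are unlike parts, with 48.3% of MALAT1 reads but 99.6% of NEAT1 reads, and MALAT1-215 was at 2111 ± 8.54 TPM in the controls. Of 13 MALAT1 transcripts tested, the log2 change was below 0 in 11 with gRNA1 and above 0 in 12 with gRNA2, with none called by limma and 4 and 3 at an unadjusted p under 0.05. These transcripts share reads, so they are not independent of each other.

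MALAT1-211, a fragment of 394 bases, stood out in a single library. It had 4251 estimated reads (1111 TPM) in gRNA1 replicate 3 and at most 174.4 reads (54.2 TPM) in the others, and was listed at 0 in control replicate 1. Its log2 change of 4.62 with gRNA1 (SE 1.87, limma adjusted p = 0.541) was 2.36 (adjusted p = 0.63) without that library. With gRNA2 the log2 change was 3.61 (SE 1.87, adjusted p = 0.562), with all gRNA2 libraries, at 15.2 to 54.2 TPM, above the controls, at 0 to 6.42 TPM. Its share of all MALAT1 reads over the 9 libraries was 0.067%.

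**Figure D4:**
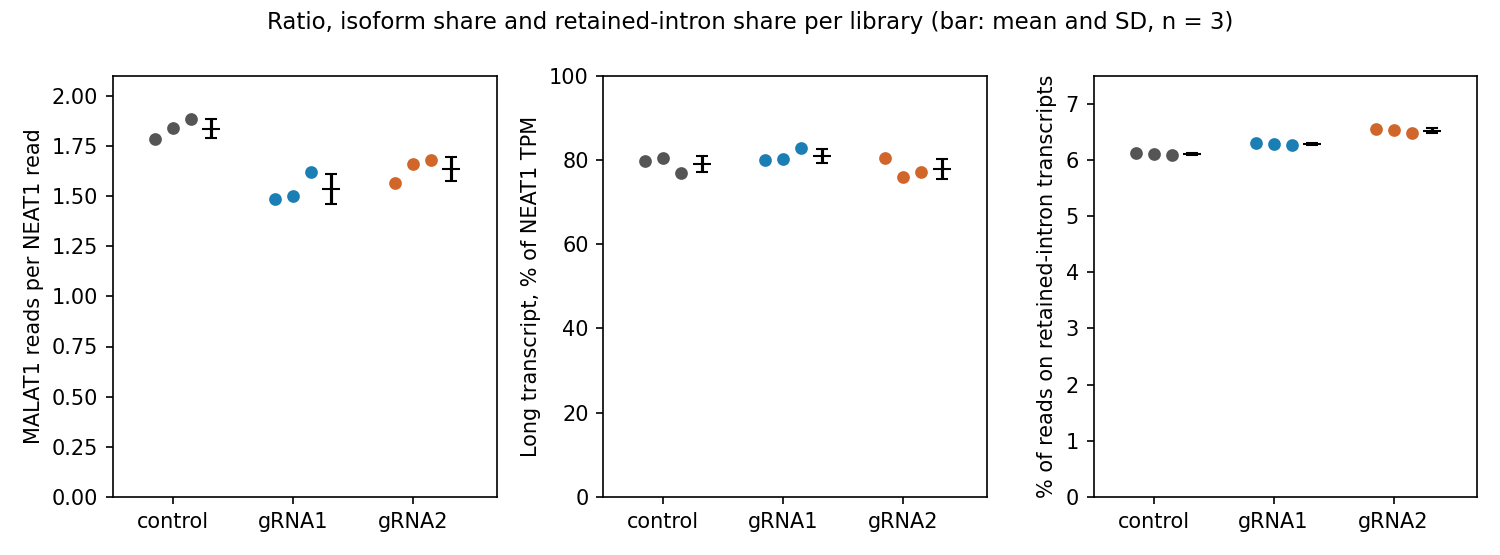
Left, MALAT1 reads per NEAT1 read; centre, the long transcript's percentage of NEAT1 TPM; right, the percentage of reads on retained-intron transcripts, each per library (points) with mean and SD per group (bars, n = 3), axes from 0. The ratio is below the controls in all 6 guide libraries, the long share overlaps between groups, and the retained-intron share rises from about 6.11% to 6.29% and 6.52% without overlap.

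Transcripts of the protein genes differed in how far 1 of them led. SFPQ-201, with 71.5% of SFPQ reads, was at 38.1, 37.9 and 37.6 TPM in control cells, 43.1, 42.2 and 38.5 with gRNA1, and 36.8, 38.8 and 41.3 with gRNA2. The gRNA1 libraries were above the controls, by a log2 change of 0.12 (SE 0.0648, limma adjusted p = 0.651). SFPQ-206, annotated as a target of nonsense-mediated decay, the pathway that degrades messages with early stop codons, was at 10.3, 6.43 and 6.61 TPM in control cells, 10.8, 12.2 and 18.6 with gRNA1, and 11.4, 11.1 and 13.9 with gRNA2. All 6 guide libraries were above the controls; the log2 changes of 0.79 and 0.63 (SE 0.24 each) had unadjusted p = 0.0115 and 0.0304 and limma adjusted p = 0.436 and 0.445. NONO-201, with 44.3% of NONO reads, was at 54.3 ± 4.27 TPM in control cells, 51.6 ± 2.56 with gRNA1 and 46.2 ± 3.53 with gRNA2, a log2 change with gRNA2 of -0.23 (SE 0.0822, adjusted p = 0.422). PSPC1-207, a retained-intron transcript with 13.9% of PSPC1 reads, was at 2.74 ± 0.123, 3.27 ± 0.408 and 3.56 ± 0.509 TPM, with all guide libraries above the controls and limma adjusted p = 0.687 and 0.469. PSPC1-201, with 40.7% of PSPC1 reads, was at 7.67 ± 0.93, 8.52 ± 0.559 and 7.69 ± 1.53 TPM, RBM14-201, with 63.3% of RBM14 reads, at 9.02 ± 0.0875, 8.94 ± 0.901 and 9.37 ± 1.07 TPM, and RBM14-202 at 3.4 ± 0.907, 3.87 ± 0.661 and 4.38 ± 1.05 TPM, with all groups overlapping.

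Other proteins found in paraspeckles or on NEAT1 were described as a list of 35 genes, all of them tested. With gRNA1, 2 rose and 0 fell, and the median log2 change was -0.00; with gRNA2, 1 rose and 6 fell, with a median of -0.04; between the guides, 2 were higher and 4 lower with gRNA2, with a median of -0.03. The shares of all genes called were 7.08%, 8.44% and 6.22%, and the medians of all genes were within 0.00948 of 0. An unadjusted edgeR p under 0.05 was found for 4, 15 and 15 of the 35, against 22%, 23.3% and 19.6% of all genes. RBM3, a cold-inducible RNA-binding protein, had 158 ± 3.16 CPM in control cells, 179 ± 2.23 with gRNA1 and 145 ± 2.99 with gRNA2 (SD, n = 3). It rose 1.14-fold with gRNA1 (edgeR adjusted p = 0.00533), had 0.922-fold with gRNA2 (0.0541), and differed between the guides at 0.811-fold (0.000158).

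With gRNA2, BCL6, a transcriptional repressor, rose from 34.7 ± 2.05 to 42.5 ± 1.52 CPM (1.22-fold, edgeR adjusted p = 0.00545). FAM98B, a part of the transfer RNA ligase complex, fell to 0.785-fold, from 27.6 ± 1.46 to 21.8 ± 1.65 CPM (adjusted p = 0.00785). HNRNPA1, an abundant splicing regulator, was at 613 ± 18.6 CPM in the controls and fell to 0.905-fold, at 555 ± 7.5 CPM (adjusted p = 0.013). The other genes that fell with gRNA2 were HNRNPF (0.896-fold), FAM98A (0.905-fold), TARDBP, which encodes TDP-43 (0.913-fold), and HNRNPK (0.928-fold), with adjusted p from 0.0243 to 0.0444. Over the 9 fits that each left out a library, the fold stayed at 0.893 to 0.924 for FAM98A and at 0.919 to 0.946 for HNRNPK. Most of the calls with gRNA2 nonetheless ended in at least 1 such fit. Those of FAM98A and HNRNPK ended in 8 of 9 fits that left out a library, all but the one without gRNA1 replicate 3 (adjusted p = 0.058 to 0.188 and 0.0638 to 0.171). The call of TARDBP ended in 7, all but those without gRNA1 replicate 3 or gRNA2 replicate 3 (0.0559 to 0.174). HNRNPF lost its call without any single control or gRNA2 replicate 2 or 3 (0.0672 to 0.101), and HNRNPA1 without control replicate 3 or gRNA2 replicate 2 (0.0821 and 0.0703). FAM98A was also not called by DESeq2 (0.0535), and FAM98A, TARDBP and HNRNPK were not called with no filter or in 2-group fits (0.0543 to 0.0925). In the direct comparison HNRNPA1, FAM98B, RBM3 and HNRNPUL1 were lower and BCL6 and RBM12 higher with gRNA2. Leaving out a library ended the call of RBM12 in 7 of 9 fits, all but those without control replicate 1 or gRNA2 replicate 1. It ended those of FAM98B (gRNA1 replicate 1 or 2, gRNA2 replicate 2), BCL6 (gRNA1 replicate 1 or 2, gRNA2 replicate 1) and HNRNPUL1 (gRNA1 replicate 3, gRNA2 replicate 2 or 3) in 3 each, and those of HNRNPA1 and RBM3 in 0. The RBM12 call also ended with no filter (edgeR adjusted p = 0.0808), a replicate block (0.0518), the offset for transcript length (0.696) and a 2-group fit (0.0657). HNRNPF, FAM98A, TARDBP, HNRNPK, HNRNPUL1 and RBM12 were named after their values were seen. With the offset for transcript length, 1 gene of this list, HNRNPF, was called with gRNA2 and 1, RBM3, between the guides. In that fit BCL6 was at 1.1-fold with gRNA2 (edgeR adjusted p = 0.391), FAM98B at 0.626-fold (0.0898) and HNRNPA1 at 0.887-fold (0.0857). None of them was called there, with gRNA2 or between the guides.

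**Figure D5:**
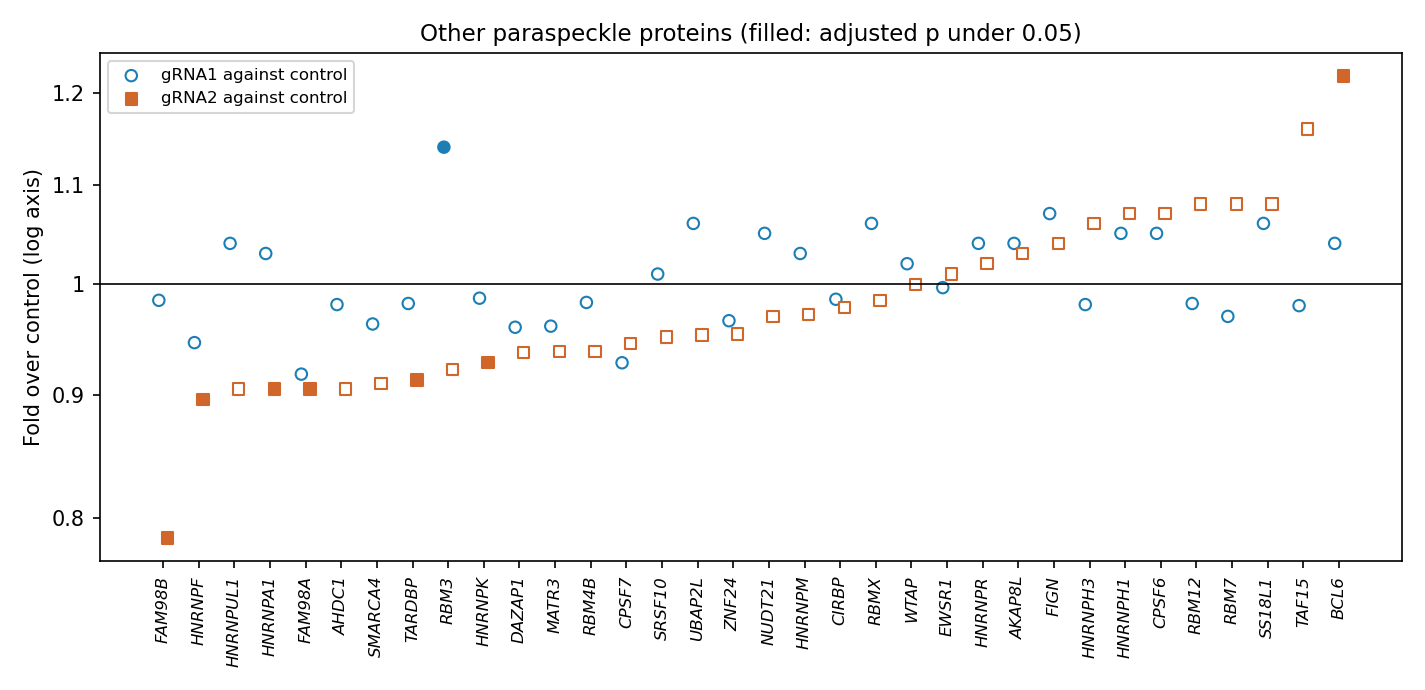
Fold over control of the further paraspeckle proteins reported here with gRNA1 (circles) and gRNA2 (squares), log axis, ordered by the gRNA2 value; filled symbols had an adjusted p under 0.05 by edgeR. RBM3 is the filled circle, BCL6 is the filled square above 1, and the 6 filled squares below 1 run from FAM98B at 0.785 to HNRNPK at 0.928.

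The splicing proteins of nuclear speckles, where MALAT1 RNA resides, gave 26 genes tested of 28 listed. With gRNA1, 0 were called by edgeR and 0 by DESeq2, and 3 had an unadjusted edgeR p under 0.05. With gRNA2 0 rose and 3 fell, and 9 had such a p. Of all genes tested, 7.08% and 8.44% were called and 22% and 23.3% had such a p. The medians were 0.01 and -0.02 (log2). SON, a scaffold protein of speckles, fell from 359 ± 3.23 to 315 ± 5.65 CPM with gRNA2 (0.876-fold, edgeR adjusted p = 0.00194). SRSF3, a serine and arginine-rich splicing factor, and THRAP3 fell to 0.879-fold and 0.9-fold (adjusted p = 0.0211 and 0.0201). Between the guides SRSF3, THRAP3 and CLK1, a kinase of such factors that was named after its value was seen, were lower with gRNA2. In that comparison 0 of the 26 were higher and 3 lower, where 6.22% of all genes were called. An unadjusted edgeR p under 0.05 was found there for 10 of the 26, against 19.6% of all genes. The SRSF3 call with gRNA2 ended without control replicate 2 or 3 or gRNA2 replicate 1 (adjusted p = 0.0571 to 0.111), and that of THRAP3 without any single control or gRNA2 replicate 1 or 2 (0.0515 to 0.105). Between the guides the SRSF3 call ended without gRNA1 replicate 1 or 2 or gRNA2 replicate 1, that of THRAP3 in 7 of 9 such fits, all but those without control replicate 1 or gRNA2 replicate 3, and that of CLK1 in 8, all but the one without gRNA2 replicate 3. The SON call held in all 9 and ended with the length offset (0.934-fold, adjusted p = 0.431). That offset also ended the THRAP3 calls (0.307 with gRNA2 and 0.451 between the guides) and the CLK1 call (0.269). A 2-group fit ended the calls of THRAP3 and CLK1 between the guides (0.0612 and 0.0714). RLE scaling and a replicate block ended that of CLK1 (0.0502 and 0.0598).

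Of the RNase P subunits and other enzymes that cut, tail or degrade NEAT1 and MALAT1 ends, 16 of 16 were tested. POP1, the largest protein of RNase P, was the single one called: it had 52.1 ± 2.02 CPM in control cells, 52.9 ± 0.226 with gRNA1 and 44.9 ± 2.88 with gRNA2, a fold of 0.862 with gRNA2 (edgeR adjusted p = 0.0191) and of 0.85 between the guides (0.0135). With gRNA1 0 were called by edgeR and 0 by DESeq2, and 3 had an unadjusted edgeR p under 0.05, against 7.08% and 22% of all genes. With gRNA2 and between the guides 1 of 16 was called, where 8.44% and 6.22% of all genes were called. Of the 16, 7 and 3 had such a p in these comparisons, against 23.3% and 19.6% of all genes. The calls of POP1 ended without control replicate 2 or 3 or gRNA2 replicate 2 or 3 (adjusted p = 0.0648 to 0.088), and between the guides without gRNA1 replicate 1 or gRNA2 replicate 2 (0.0536 and 0.0685). The list's median log2 change was -0.09 with gRNA1 and -0.11 with gRNA2. RPP21 was at 0 reads in the gRNA1 libraries and at means of 0.589 and 0.36 CPM in control and gRNA2 libraries, and setting it at 3 reads over that group left the gRNA1 median at -0.09. ELAC2, which cuts the small RNAs released from both transcripts, was at 0.914-fold and 0.909-fold (adjusted p = 0.105 and 0.0792), and METTL16, which binds the MALAT1 triple helix, at 0.947-fold and 0.96-fold (0.363 and 0.507).

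Genes around the 2 loci were compared to see whether they moved with NEAT1 or MALAT1. Within 250 kb on either side, 26 of 43 annotated genes were tested. They included RF01956, an RNA element annotated inside NEAT1 on its strand, at 1.3-fold and 1.64-fold with gRNA1 and gRNA2 (edgeR adjusted p = 0.394 and 0.0821), and the counts called were the same without it. With gRNA1, 0 rose and 1 fell: PCNX3, from 55.1 ± 3.84 to 45.7 ± 0.902 CPM (0.831-fold, edgeR adjusted p = 0.0272), where 7.08% of all genes were called. That call ended without control replicate 1 or 2 or any gRNA1 replicate (adjusted p = 0.0629 to 0.108), and with gRNA2 PCNX3 passed with no filter (0.0316) and without gRNA2 replicate 1 (0.0163). With gRNA2 and between the guides 0 were called by edgeR and 0 by DESeq2, and 4 and 3 had an unadjusted edgeR p under 0.05. Of all genes, 8.44% and 6.22% were called in these comparisons and 23.3% and 19.6% had such a p. With gRNA1, 6 of the 26 had such a p, against 22% of all genes. The median log2 change was -0.09 with gRNA1 and -0.07 with gRNA2. RELA and KAT5, a transcription factor of the NF-kappaB family and an acetyltransferase, were at 0.912-fold and 1.01-fold with gRNA1 and at 0.928-fold and 0.925-fold with gRNA2 (adjusted p = 0.182, 0.965, 0.268 and 0.347).

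As a description, the genes whose log2 CPM over the 9 libraries was most like each member were listed among the 10507 genes whose average log2 CPM was 3 or more; the libraries share groups and depth, and no p is given. For NEAT1 they were 3 long noncoding RNAs, LINC-PINT (Pearson r = 0.986), LINC00662 (0.983) and GABPB1-AS1 (0.979), which were at 1.38-fold, 1.52-fold and 1.19-fold with gRNA2. For MALAT1 they were ZNF83 (0.983), DDX21 (0.982) and LIMA1 (0.98). For SFPQ they were CYP3A5 (0.962), WDR75 (0.962) and CCDC125 (0.95). NONO was most like XRCC6 (0.994), SMC1A (0.985) and HJURP (0.983), which were at 0.835-fold, 0.861-fold and 0.826-fold with gRNA2. PSPC1 was most like RAB43 (0.946), FAM3C2P (0.938) and SH2B1 (0.918), and RBM14 was most like DECR2 (0.877) and BLOC1S3 (0.874). An r of at least 0.8 was reached by 3.57% of these genes for NEAT1, 4.05% for MALAT1, 5.21% for NONO and 2.24% for SFPQ, but 0.305% for PSPC1 and 0.133% for RBM14. Among the members, NEAT1 and NONO had r = -0.847, MALAT1 and NONO -0.758, NEAT1 and MALAT1 0.512, and SFPQ and NONO 0.259.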

How the data were processed

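Total RNA of 9 H1975 libraries was quantified by the authors with Salmon 1.4.0 against hg38, per the submitters' processing notes. Per the file headers, each deposited table gives an estimated count of reads and TPM for 211939 transcripts. The strand setting is not given in the sources used here. Of the transcripts, 95.7% matched GENCODE 29; the sums of their estimated counts over each of 56823 genes were rounded. Reads on unmatched transcripts (1.26% to 1.33%) were left out.

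In edgeR 4.0.16 (R 4.3.3), 19658 genes passed filterByExpr, TMM scaled the libraries, and two-sided quasi-likelihood F tests compared the 3 groups in a single fit, with Benjamini-Hochberg adjustment over all genes (threshold 0.05). Transcripts with a mean of at least 1 TPM were tested with limma 3.58.1 on log2(TPM + 0.5), a scale that understates changes of low transcripts. Shares and ratios had exact permutation tests. Alternatives were RLE scaling, DESeq2 1.42.0, no filter, a replicate block, 2-group fits, an offset for effective transcript length, other pseudocounts and leaving out each library. The members and lists were chosen with earlier results of these data known. From each list, up to 4 called genes with the lowest adjusted p against control were named, with NEAT1 and MALAT1 transcripts, other transcripts with at least 5% of a gene's reads, and the 3 genes most like each member. The uncalled ELAC2, METTL16, RPP21, RELA, KAT5 and RF01956 were named outside this rule. A gene of the paraspeckle list, counted there, and a gene most like RBM14 are not reported here. Python 3.11.15, pandas 2.3.3, scipy and matplotlib 3.10.9 did the rest. Precision is limited by 3 libraries per group.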

Additional observations from a re-analysis of the deposited data

Results flagged for a closer look

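The effects of the 2 guides differed for 3 of the 6 genes by the direct test of gRNA2 against gRNA1 (edgeR quasi-likelihood, adjusted over all genes). NEAT1 was 1.13-fold higher with gRNA2 (adjusted p = 0.00047) and rose over control with both guides. MALAT1 was 1.2-fold higher with gRNA2 (adjusted p = 0.00044), and its folds over control lay on opposite sides of 1. NONO was at 0.908-fold (adjusted p = 0.0151), a value that did not pass with the offset for transcript length (adjusted p = 0.502).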

How the results depend on the processing

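NEAT1 with gRNA2 (1.2-fold to 1.23-fold), NEAT1 between the guides (1.11-fold to 1.15-fold) and MALAT1 between the guides (1.18-fold to 1.23-fold) kept direction and call in all 15 alternatives. The offset for transcript length called 538 genes with gRNA1, 434 with gRNA2 and 446 between the guides in place of 1391, 1659 and 1222, and gave folds of 1.05 (NEAT1, gRNA1), 1.12 (SFPQ, gRNA1), 0.947 (NONO, gRNA2) and 0.951 (NONO, between guides), none called, and 0.996 (NONO, gRNA1). With it, HNRNPA1 (0.998), RBM12 (1.09), BCL6 (0.99) and POP1 (0.975) with gRNA1 and FAM98A between the guides (1.12) turned direction, none of them called there in either fit. The list counts with this offset were 1 (paraspeckle proteins, gRNA2), 1 (the same, between guides), 1 and 1 (nuclear speckle, gRNA2 and between guides), 0 and 0 (3′ end enzymes, likewise) and 1 (neighbours, between guides). The cause was not tested.

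In the 2-group fits NONO with gRNA2 was at 0.921 and not called, and the counts were 4 (paraspeckle proteins, gRNA2), 1 (nuclear speckle, between guides) and 1 (neighbours, gRNA2). With no filter MALAT1 with gRNA2 passed at 1.08, and the counts were 5 (nuclear speckle, between guides), 1 and 2 (3′ end enzymes, gRNA1 and between guides) and 5, 4 and 2 (neighbours, gRNA1, gRNA2 and between guides). DESeq2 gave 5 (nuclear speckle, between guides) and 2 (neighbours, gRNA1), and RLE gave 2 (3′ end enzymes, between guides). Reads of RBM14-RBM4 added to RBM14 gave 0.991 between the guides. On the TPM scale the NONO to SFPQ ratio differed by 0.00621 between the guides, against -0.0587 by reads.

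Whether the replicate numbers pair the libraries is not stated, and correlations between libraries did not settle it. Deviations of same-numbered libraries from their group means had correlations from -0.139 to 0.21, with 4 of 9 pairs over 0.1. Those of other pairs ran from -0.288 to 0.22, and 5 of 9 libraries correlated best with their own number. With the replicate block MALAT1 with gRNA2 passed at 1.08 (adjusted p = 0.00558), 1264, 1582 and 1144 genes were called, 1 neighbour was called with gRNA2, and no other member's call changed.

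Leaving out each library in turn called 654 to 1701 genes with gRNA1, 671 to 1817 with gRNA2 and 575 to 1215 between the guides. The folds ranged from 1.07 to 1.1 (NEAT1, gRNA1), 0.885 to 0.916 (MALAT1, gRNA1), 1.06 to 1.12 (MALAT1, gRNA2), 1.1 to 1.13 (SFPQ, gRNA1), 0.92 to 0.928 (NONO, gRNA2), 0.899 to 0.921 (NONO, between guides), 0.932 to 1 (PSPC1, between guides), and 0.98 to 1.04, 1 to 1.11 and 0.992 to 1.1 (RBM14, gRNA1, gRNA2 and between guides). They ranged from 0.96 to 1.02 for FAM98B, 0.979 to 1.01 for THRAP3 and 0.996 to 1.03 for POP1 with gRNA1. List counts ranged from 1 to 3, 2 to 8 and 3 to 6 (paraspeckle proteins, gRNA1, gRNA2 and between guides), 1 to 4 and 0 to 4 (nuclear speckle, gRNA2 and between guides), 0 to 2 in each (3′ end enzymes, likewise), and 0 to 2, 0 to 3 and 0 to 1 (neighbours, gRNA1, gRNA2 and between guides). Log2 changes of some transcripts turned sign. With gRNA1 they ranged from -0.12 to 0.09 (NEAT1-205), -1.23 to 0.19 (MALAT1-206), -0.15 to 0.02 (MALAT1-213), -0.01 to 0.15 (SFPQ-205), -0.17 to 0.10 (NONO-210), -0.04 to 0.11 (NONO-211), -0.51 to 0.06 (PSPC1-203), -0.12 to 0.10 (PSPC1-204), -0.06 to 0.06 (RBM14-201), -0.03 to 0.31 (RBM14-202) and -0.23 to 0.11 (RBM14-208). With gRNA2 they ranged from -0.40 to 0.20 (MALAT1-204), -0.04 to 0.09 (MALAT1-205), -0.06 to 0.21 (MALAT1-208), -0.00 to 0.08 (SFPQ-201), -0.12 to 0.15 (NONO-210), -0.11 to 0.16 (PSPC1-201), -0.01 to 0.40 (PSPC1-203) and -0.04 to 0.11 (RBM14-201). Between the guides they ranged from -2.52 to 1.25 (MALAT1-211), -0.16 to 0.88 (MALAT1-217), -0.02 to 0.13 (SFPQ-205), -0.31 to 0.07 (SFPQ-206), -0.01 to 0.10 (NONO-210), -0.26 to 0.01 (PSPC1-201) and -0.02 to 0.12 (RBM14-201).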

Other observations

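The ratio of NONO to SFPQ reads, chosen after the values were seen, was 2.007, 2.074 and 2.003 for control. With gRNA1 it was 1.812, 1.841 and 1.896, and with gRNA2 it was 1.84, 1.806 and 1.726. All 6 guide libraries were below the 3 controls, although a different gene of the pair was called with each guide. The exact permutation test gave p = 0.1 for each guide against control, the smallest that 3 against 3 libraries allow. On the TPM scale the ratio was 3.454 ± 0.227, 3.055 ± 0.126 and 3.061 ± 0.172 (SD, n = 3), again with all guide libraries below the controls.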
